A study of Arabidopsis thaliana with 3 samples.

Results

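Among single cells sorted from young lateral root primordia of Arabidopsis thaliana, a minority carried reads of several heat shock genes together. A well of the plates was taken as 1 cell, and 322 of 573 wells, those with a read of at least 500 genes, were kept. Heat shock wells were the 96 kept wells with a read of at least 5 of 10 heat-inducible genes, 29.8% of the kept wells (exact 95% binomial interval 24.9 to 35.1). They are compared with the 153 kept wells with a read of at most 2 of these genes, called comparison wells, and 73 wells with 3 or 4 lie between. Members were thus chosen by the reads of these 10 genes in the same wells, and the genes were picked with results of these data known, so their own levels are given as a description.

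All cells came from Col-0 seedlings collected 5 days after germination, which carried pHB53:NLS-3xmCherry, a nuclear red fluorescent reporter driven by the promoter of the homeodomain gene HB53. Roots were made into protoplasts, single cells freed of their walls by enzymes, and red cells were sorted as primordium cells of stages I-IV. No heat treatment is named in the labels, which give growth at 22°C for every sample, so the groups here differ in their reads and not in a labelled treatment. Which well belongs to which of the 3 labelled replicates cannot be read from the sources, so the wells count as 1 sample with no replicate error and no test. The 95% intervals cover counting error alone.

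The heat shock response is a rapid change in transcription by which cells protect their proteins. Heat shock factors (HSFs) bind heat shock elements, repeats of the letters GAA and TTC in alternating direction, in front of chaperone genes. Small heat shock proteins hold unfolding proteins, HSP70 and its J-domain partners refold them, HSP90 matures signalling proteins and HSP101 pulls aggregates apart. In Arabidopsis, HSFA1 factors start the response, HSFA2 prolongs it, and HSFB factors mostly repress.

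The elements are shown for genes on which the results turn. The search was for 3 units, GAANNTTCNNGAA or its reverse complement TTCNNGAANNTTC, on either strand within 500 bases before the first coding base in RefSeq's TAIR10.1 annotation. That window was chosen after a shorter one had been tried. Each line gives 29 bases, 5′ to 3′ on the gene's strand, with the 13 letters of the element in capitals. The first group are genes of the rule.
AT1G53540, chr1:19980238-19980266, plus strand: caacaccaGAAACTTCTTGAAagcacctg
HSFA2, chr2:11135528-11135556, plus strand: ttagtaacGAAGTTTCTGGAAcattgtct
HSP70, chr3:3993846-3993874, minus strand: ttactcgtGAACGTTCTCGAAagctcttt
Genes outside the rule that stood higher in heat shock wells follow.
HSP17.4, chr3:16984946-16984974, minus strand: tcaacataGAAGCTTCTTGAAgccacctg
ATHSP22.0, chr4:6370379-6370407, plus strand: aaagatatTTCAAGAAACTTCttcattct
HSFA7A, chr3:19264941-19264969, plus strand: ttacgaagTTCCAGAAGTTTCgactattc
HSP90.1, chr5:21352254-21352282, plus strand: aacgaaaaGAACTTTCTGGAAttcgtttg
ATERDJ3A, chr3:2737406-2737434, plus strand: atatgtcaTTCGAGAAATTTCcttttttt
The last is a constitutive chaperone gene that was not called.
HSC70-1, chr5:556554-556582, minus strand: caaccatcGAACATTCTCGAAacatttta
The element was present in 3 of the 10 rule genes and in 329 of 27437 genes with such a window, or 1.20%. The window can reach into the annotated gene. The elements of HSP70, ATHSP22.0, ATERDJ3A and HSC70-1 began 20, 49, 117 and 49 bases after the annotated gene start. The other elements printed began before it. A match describes letters only and is not shown to be bound.

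The heat shock wells came from all 6 plates and all 3 flow cells. They made up 24 of 102 kept wells on flow cell 1 (23.5%), 33 of 96 on flow cell 2 (34.4%) and 39 of 124 on flow cell 3 (31.5%). Plates ranged from 18.9% (9.44 to 32.0) on plate 6 to 40.8% (29.3 to 53.2) on plate 7, and both of these were read on flow cell 3. No plate or flow cell was without them. Heat shock wells had a median of 210144 reads (range 9625 to 1409141), against 250978 (8315 to 1208065) in comparison wells. They nevertheless had more genes with a read, a median of 4526.5 (693 to 8451) against 3673 (506 to 7970). With every well thinned to 115851 reads, which left out 20 heat shock and 29 comparison wells, the medians were 4335.5 and 3568 genes. The rule counts detected genes, so gene number and membership are not independent, and the part of gene number in the results below was not tested beyond the alternatives with wells of like gene number and with thinned wells. Organelle reads took a median of 2.40% in heat shock wells and 2.61% in comparison wells.

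**Figure D1:**
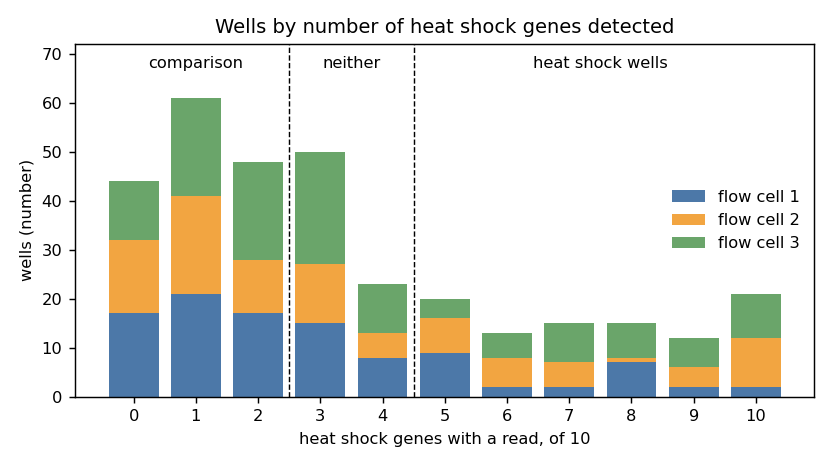
Number of kept wells (y axis) by how many of the 10 heat shock genes of the rule had a read (x axis), stacked by flow cell, with dashed lines at the limits of the groups. The most wells, 61, had 1 gene, 12 wells had 9 genes and 21 wells had reads of all 10.

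The number of rule genes per well ran from 0 in 44 wells to 10 in 21 wells. The 10 genes together took 0.0171% to 5.71% of a heat shock well's reads, with a median of 0.385%. In comparison wells they took 0 to 1.21%, with a median of 0.00824%, so the groups overlapped in this share. The limit of the rule lies within a continuum. The 20 wells with 5 genes gave a median of 0.137% of reads to the 10 genes (0.0171 to 0.588), and the 23 wells with 4 genes gave 0.113% (0.0108 to 1.02).

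The values of the rule genes are given by role, as a description. Among small heat shock proteins, AT1G53540 had reads in 69.8% of heat shock wells, with 0, 98.0 and 8929 CPM (reads of the gene scaled to a common total per well) as the lowest, median and highest well. It had reads in 1.96% of comparison wells, where the highest held 49.2 CPM. AT1G07400 was found in 83.3% and 3.27%, AT2G29500 in 69.8% and 3.92%, and the cytosolic class II protein HSP17.6II in 69.8% and 4.58%. RefSeq names the first 3 only as HSP20-like chaperones.

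Of the large chaperones in the rule, the disaggregase HSP101 was read in 90.6% of heat shock and 9.15% of comparison wells, and the inducible Hsp70b in 66.7% and 4.58%. HSP70 (AT3G12580) separated the groups least, with 99.0% and 43.8%. In comparison wells its lowest and median values were 0 and its highest was 12100.2 CPM, against a median of 1285 and a highest of 11995 CPM in heat shock wells. BAG6, a co-chaperone of the BAG family, was read in 67.7% and 8.50%. The factor HSFA2 was read in 48 heat shock wells and in 3.27% of comparison wells, and MBF1C, a transcriptional coactivator needed for thermotolerance, in 84.4% and 19.6% of the groups.

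Genes outside the rule were compared by the log2 ratio of CPM of summed reads, scaled by the trimmed mean of M values (TMM). A gene was measured with a read in at least 10 wells of both groups together. It was called when the ratio reached 2-fold, had the same sign on all 3 flow cells, and no single well held over 50% of the reads of the higher group. Of 15604 measured genes, 988 (6.33%) were called higher in heat shock wells and 893 (5.72%) lower. These percentages are the background for the counts below, and the median log2 ratio of all measured genes was 0.00040.

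Small heat shock proteins outside the rule were also higher in heat shock wells. Of 13 listed genes, 11 were measured, and all 11 of these were called higher, where the share over all measured genes was 6.33%. Nothing is read from that comparison, because 8 of the 11 had reads in under 10 comparison wells and so were measured only with the heat shock wells counted in. The 3 with reads in at least 10 comparison wells, AT1G59860, AT5G51440 and HSP18.2, were called higher. The median log2 ratio of the 11 was 6.07, and 5.39, 7.11 and 7.08 on the 3 flow cells, as a description. The other two, AT5G47600 and AT4G21870, had reads in 2 and 1 heat shock wells and in 1 and 5 comparison wells. AT5G37670 had few reads, in 9 and 5 wells, and its log2 ratio of 3.73 became -0.074 when every well was given the same weight.

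Members of this group act in several compartments. In the cytosol, the class II protein HSP17.6A (AT5G12030) had a median of 103.6 and a highest value of 5555 CPM in heat shock wells, where 68.8% had a read. In comparison wells 4.58% had a read and the highest value was 118.2, giving a log2 ratio of 7.40. With wells thinned to equal reads the shares were 69.7% and 3.23%. The class I genes HSP17.4 and HSP18.2 had ratios of 5.21 and 3.83. Genes that RefSeq names only as HSP20-like chaperones are not placed in a compartment here. They gave 7.56 for AT1G52560, 7.27 for AT1G54050, 4.51 for AT1G59860 and 3.93 for AT5G51440.

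Organelle forms differed in how many wells they were read in. HSP21, the chloroplast form, had reads in 22 of 96 heat shock wells (22.9%, 15.0 to 32.6) and in 1 of 153 comparison wells, with 2053 and 3 reads in all. ATHSP22.0, the form of the endoplasmic reticulum (ER), also had reads in 22 heat shock wells and in no comparison well, which allows a share of up to 2.38% there by the exact interval. Against a floor of 3 reads over the comparison wells, its level was at least 1478-fold higher. HSP23.6-MITO, a mitochondrial form, was read in 49.0% and 3.92% of wells, with a log2 ratio of 6.07.

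**Figure D2:**
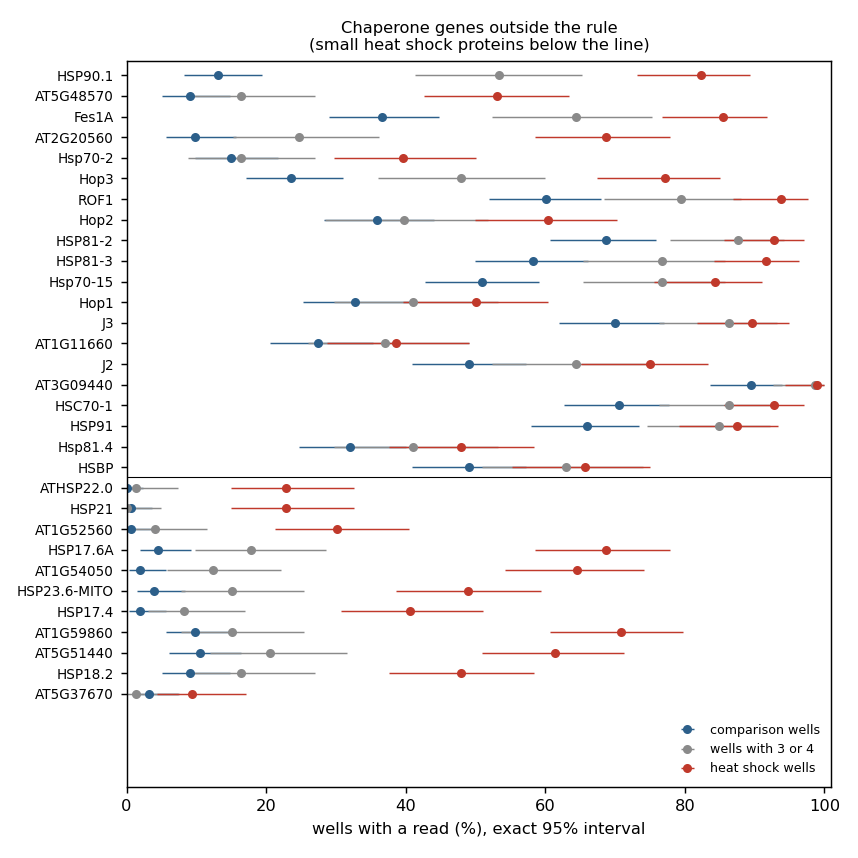
Share of wells with a read (x axis, percent, with exact 95% intervals) for each measured small heat shock protein and cytosolic chaperone gene outside the rule, in comparison wells, wells with 3 or 4 rule genes and heat shock wells. HSP90.1 moves from 13.1% to 53.4% and 82.3%, while HSC70-1 was read in 70.6% of comparison wells already.

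Cytosolic chaperones ranged from genes read in few comparison wells to genes read in most wells of either kind. Of 21 listed genes outside the rule, 20 were measured, 11 were called higher and none lower, with a median log2 ratio of 1.38. All 20 had reads in at least 10 comparison wells. HSP90.1, the heat-inducible HSP90, ran from 0 through a median of 560.0 to 10542 CPM in heat shock wells. In comparison wells its median was 0 and its highest value 556.0, just under the median of heat shock wells. Its log2 ratio was 6.83, and 4.63, 9.92 and 5.83 on the 3 flow cells.

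The constitutive relatives stood closer together. HSP81-2 and HSP81-3, HSP90 genes that are read in most cells, had log2 ratios of 1.46 and 1.39, and Hsp81.4 had 0.067, not called. HSC70-1, a constitutive HSP70, had 0.38, with a median of 930 CPM in heat shock wells and 473.8 in comparison wells, and it was not called. AT3G09440, another HSP70 gene, had 0.49 and HSP91 had 0.27, while Hsp70-2 reached 2.66 and Hsp70-15 reached 1.37. These paralogs are close in sequence, so reads shared between copies may be counted on either, and this holds for small heat shock proteins too.

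Among co-chaperones, the peptidyl-prolyl isomerase AT5G48570 had a log2 ratio of 5.82 and ROF1, an isomerase that binds HSP90, 1.70. Fes1A, which protects HSP70 in heat, had 3.47 and was read in 85.4% of heat shock wells against 36.6%. The J-domain gene AT2G20560 had 3.45, whereas the J-domain genes J3 and J2 had 0.69 and 0.54 and were not called. Hop3 and Hop2, which join HSP70 to HSP90, had 2.27 and 1.49, and Hop1 had 0.84, not called. HSBP, a binding protein that restrains heat shock factors, had -0.28, not called.

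Chaperones of mitochondria and plastids followed in part. Of 13 listed genes, all measured, 5 were called higher and none lower, with a median log2 ratio of 0.88. The organelle disaggregases CLPB3 and CLPB4 had 3.61 and 3.57. The HSP70 genes cpHsc70-2 of the plastid and MTHSC70-2 of the mitochondrion had 2.16 and 1.76, and the mitochondrial HSP90 gene Hsp89.1 had 1.35. Their sister genes cpHsc70-1 and mtHsc70-1 had 0.48 and 0.47, and the chaperonin HSP60 had 0.88, none of them called.

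Genes of the unfolded protein response of the ER did not stand higher as a group. Of 14 listed genes, 13 were measured and 1 was called, with a median log2 ratio of -0.11. The called gene was ATERDJ3A, a J-domain protein of the ER, with a ratio of 3.96 and reads in 36.5% of heat shock and 6.54% of comparison wells. It was also the single gene of that list with the heat shock element searched for. The ER HSP70 genes BIP1 and BIP2 had 0.50 and -0.22, and the factors BZIP60 and BZIP28, which start that response, had 0.53 and 0.40, none of them called.

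Some of the heat shock factors themselves were called. Of 20 listed factors outside the rule, 16 were measured. Of these, 3 were called higher and 13 were not called, where the share called higher over all measured genes was 6.33%. HSFA7A, an inducible class A factor, had a log2 ratio of 3.24, with 3.00, 3.04 and 3.69 on the flow cells, and was read in 59.4% against 20.3% of wells. HSFA1E, of the group that starts the response, had 1.24, and the class B repressor HSFB2A had 1.18. HSFA1E gave -0.0080 when heat shock wells needed 6 rule genes, so its call rests on the limit of the rule.

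The other members of the starter group had no call, with 0.53 for HSF1, 1.58 for HSF3 and -0.62 for HSFA1D. HSF4 (AT4G36990), a class B factor, was read in 96.9% of heat shock and 89.5% of comparison wells, with a ratio of 0.17. AT-HSFA7B had a ratio of 1.02 that changed sign between flow cells (-1.19, 2.05 and 6.87), and was read in 15 heat shock and 5 comparison wells. HSFA6A, HSFA9, HSFB3 and HSFC1 had reads in at most 1 well of either group.

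Other heat response genes were mixed. Of 7 listed and measured genes, 3 were called higher. HSA32, a protein of long-lasting acquired thermotolerance, had a log2 ratio of 4.29 and DREB2B and DREB2C, factors of the drought and heat response, had 3.22 and 1.31. DREB2A, which activates HSFA3 in heat, had 0.037, with medians of 1157 CPM in heat shock and 872.8 in comparison wells. APX2, a heat-inducible peroxidase, had 3.72 but -1.69 on flow cell 1 and was not called. The galactinol synthase GolS1 and the peroxidase APX1 had 0.44 and 0.23, not called.

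**Figure D3:**
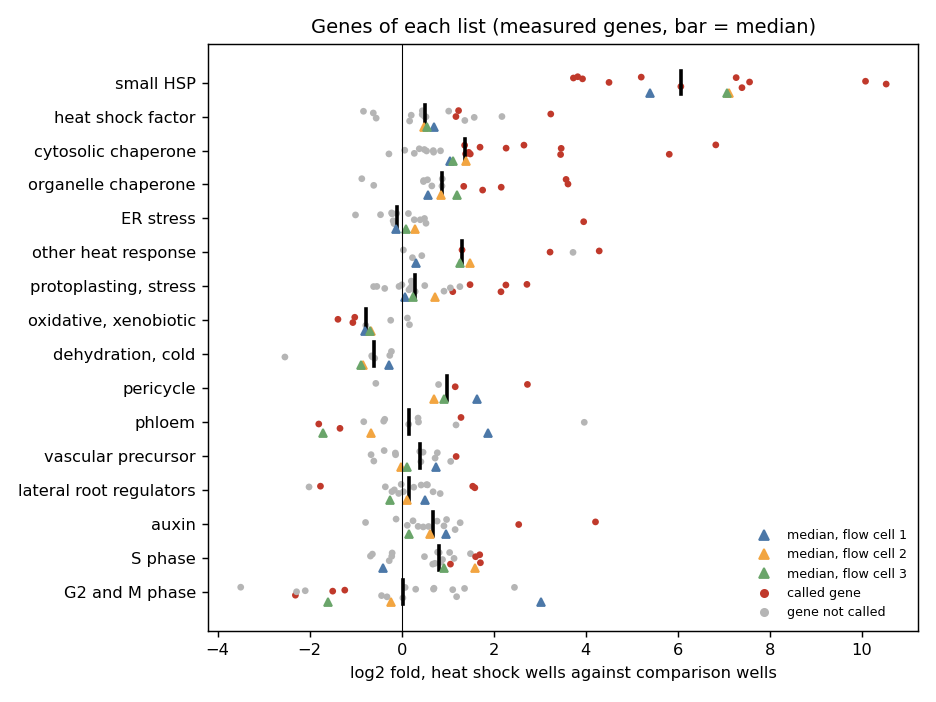
Log2 ratio of heat shock wells to comparison wells (x axis) for each measured gene of 16 gene lists (rows), with called genes in red, other genes in grey, the list median as a black bar and the medians on the 3 flow cells as triangles. The median is 6.07 for small heat shock proteins and -0.11 for the ER stress list, and the phloem and G2 and M phase medians change sign between flow cells.

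Within the heat shock wells the response varied widely in size. Small heat shock proteins outside the rule took from 0 to 1.65% of a well's reads, with a median of 0.0658%, and in comparison wells from 0 to 0.150%, with a median of 0. Cytosolic chaperones outside the rule took 0.140% to 3.53%, with a median of 0.814%, against 0 to 1.28% and a median of 0.395%. The ranges of the groups overlapped in both measures. The 10 wells with the most reads of small heat shock proteins outside the rule held 59.2% of those reads, and the 10 with the most chaperone reads held 34.6%.

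**Figure D4:**
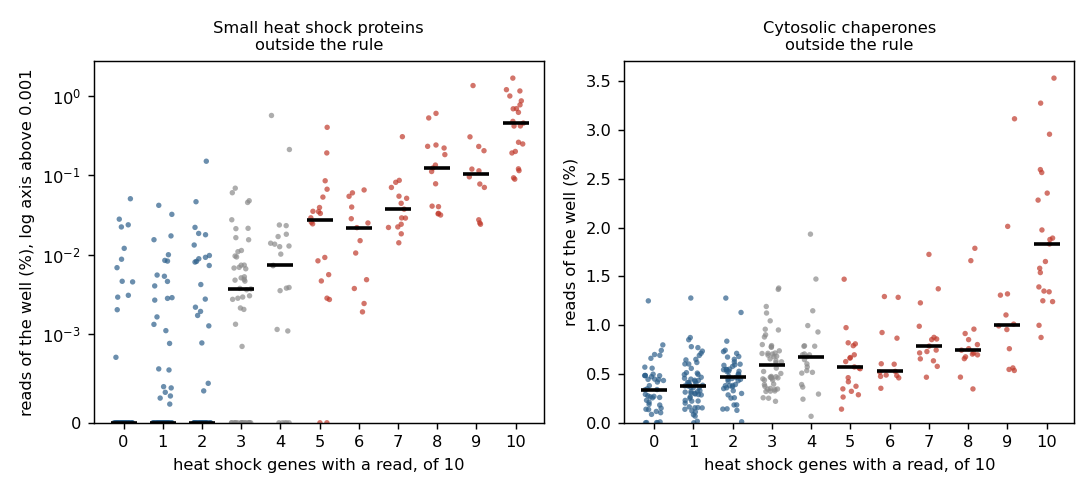
Percent of a well's reads (y axis) from small heat shock proteins (left, log axis above 0.001) and cytosolic chaperones (right), both outside the rule, by the number of rule genes with a read (x axis). Points are wells, in blue for comparison, grey for 3 or 4 and red for heat shock wells, and bars are medians. The chaperone median is 0.339% in wells with 0 rule genes and 1.83% in wells with 10.

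More small heat shock genes outside the rule were detected per well as the number of rule genes grew. Not all genes outside the rule did so. HSF1 was read in 33.3%, 26.7% and 12.1% of wells with 5 or 6, 7 or 8 and 9 or 10 rule genes. The median number of small heat shock genes outside the rule was 0 in wells with 0, 1 or 2 rule genes, 1 in wells with 3 or 4, 2 with 5 or 6, 4 with 7 or 8 and 7 with 9 or 10. Their median share of reads was 0.0251% in the 33 wells with 5 or 6, 0.0528% in the 30 wells with 7 or 8 and 0.246% in the 33 wells with 9 or 10. The median gene number of these classes was 4426, 4324.5 and 5061, so the highest class also had the most genes.

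The point at which detection grew differed between genes, but detection also depends on the level of a gene. HSP90.1 had 281, 527 and 3182 CPM of summed reads in wells with 5 or 6, 7 or 8 and 9 or 10 rule genes. HSP21 had 13.8, 8.15 and 193 CPM there. The part of level in these differences was not tested, so no order of induction is read from them. HSP90.1 was read in 14.6% of wells with 2 rule genes, 42.0% with 3 and 78.3% (56.3 to 92.5) with 4. It was read in 57.6% (39.2 to 74.5) with 5 or 6 and in 100% (89.4 to 100) with 9 or 10. Fes1A was read in 27.3% of wells with no rule gene and in 64.0% with 3. HSP21 had no read in wells with 3 or 4 rule genes and was read in 6.06%, 16.7% and 45.5% of the 3 classes of heat shock wells. AT-HSFA7B was read in 0, 6.67% and 39.4% of these, and ATHSP22.0 in 12.1%, 16.7% and 39.4%. BIP2 stayed between 40.9% and 66.7% in all classes, with no order.

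**Figure D5:**
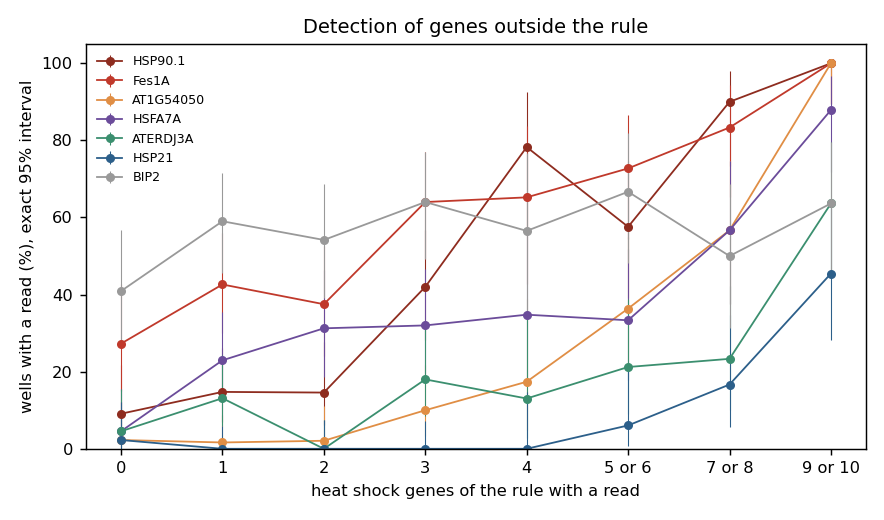
Share of wells with a read (y axis, percent, with exact 95% intervals) for 7 genes outside the rule by the number of rule genes with a read (x axis). Fes1A and HSP90.1 are read in 64.0% and 42.0% of wells with 3 rule genes, HSP21 is read from 5 rule genes on apart from 1 well with none, and BIP2 shows no order.

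HSFA2 had a read in 48 of the 96 heat shock wells. It is a gene of the rule, and wells with it had a median of 8 other rule genes against 6 in wells without, so the values of this split are a description. Small heat shock proteins outside the rule took a median of 0.151% of reads in wells with a HSFA2 read and 0.0328% in wells without, with 0.0599% and 0.0331% on flow cell 1, 0.229% and 0.0270% on flow cell 2 and 0.192% and 0.0397% on flow cell 3. HSP21 was read in 39.6% (25.8 to 54.7) and 6.25% (1.31 to 17.2) of these wells, and Hsp70-2 in 60.4% and 18.8%. Wells with a HSFA2 read had a median of 5327.5 genes, against 4194 in the others, and the part of gene number and of the other rule genes in this difference was not tested.

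The 12 highest genes outside all lists had mixed annotations. Among called genes read in at least 30% of heat shock wells, HSP70T-2, an HSP70-like gene, had a log2 ratio of 4.29 and a median of 96.7 CPM, with reads in 63.5% and 9.15% of wells. PDX1.2, a non-catalytic partner in vitamin B6 synthesis, had 3.64. It had reads in 44 heat shock and 7 comparison wells, so it was measured only with the heat shock wells counted in. ELIP1, an early light-induced protein, had 3.35 and is the single gene among these 12 with the element. AT5G25450, annotated as a subunit of the respiratory chain, had 4.32, the uncharacterized AT1G59865 had 4.30, the monooxygenase AT5G35320 had 3.37 and AT1G70480 had 2.84. AT3G10020 was the most widely read, in 87.5% against 32.0% of wells, with 2.78. The J-domain gene AT1G72416 had 2.65, AT2G42760 had 2.61, the ethylene response factor ERF13 had 2.60 and AT5G66650, annotated as a calcium uniporter, had 2.59.

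The genes lower in heat shock wells had smaller ratios. RAP2.6, a stress-responsive AP2/ERF factor, had -2.37, with reads in 26.0% of heat shock and 44.4% of comparison wells. The peroxidase Prx37 had -2.02, the peptide transporter PTR1 -1.80 and the aldo-keto reductase AKR4C8 -1.78. The helicase AT2G42270 had the lowest value of this set, -2.73, followed among the rest by -1.92 for the sugar kinase AT3G59480, -1.75 for DAN1, -1.71 for AT3G05230, and -1.70 for both AT1G30700 and AT5G46420. None of these 10 had the element.

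The strand setting of the counting is not stated in the sources, so reads of overlapping genes cannot be told apart. HSP17.4 shares 453 bases with a non-coding RNA on the other strand, DREB2B shares 1086 with TBL32, AT3G09440 shares 863 with AT3G09430, and AT3G05230 shares 1698 with MEF19.

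The heat shock element was then counted over the calls. It was found in 36 of 973 genes called higher (3.70%), 10 of 869 called lower (1.15%) and 1.39% of measured genes not called. Outside all gene lists, 24 of 922 genes called higher had it (2.60%). Among genes called higher with a log2 ratio of at least 3 the share was 9.57%, 11 of 115. Outside all lists that share was 4.30%, 4 of 93. In the 6 lists of heat shock factors, chaperones, ER stress and other heat genes, 12 of 34 genes called higher had it (35.3%), against 6 of 46 measured genes not called (13.0%). HSC70-1, GolS1 and AT-HSFB2B are among those 6, so the letters were also present where no call was made. These lists were chosen with earlier results known, and the shares are given without a test. Of the 34 genes, 8 were small heat shock proteins measured only with the heat shock wells counted in. HSP17.4 and ATHSP22.0, which have the element, are among these 8. Such genes are also among those with a log2 ratio of at least 3, so nothing is read from either comparison.

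Some stress genes linked to protoplasting, the enzymatic removal of walls, were higher. Of 20 listed genes, 19 were measured, 5 were called higher and none lower. Over all measured genes the share called higher was 6.33%. The log2 ratio was positive for 15 and negative for 4, with a median of 0.29. The called genes were BAP1, a membrane-associated regulator of defence, with 2.72, the jasmonate repressors JAZ7 and JAZ8 with 2.26 and 2.16, the zinc finger factor STZ with 1.49 and ERF5 with 1.11. The list took a median of 0.638% of reads in heat shock wells and 0.561% in comparison wells. JAZ7 was read in 10 heat shock and 5 comparison wells, so it was measured only with the heat shock wells counted in. Its ratio became -0.56 with equal weight per well, and nothing is read from its call. RHL41 and JAZ1, which were read in over 87% of both groups, had 0.29 and 0.0045, not called.

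Glutathione transferases and other oxidative response genes ran the other way. Of 8 listed genes, 7 were measured and 3 were called lower, GSTU24 with -1.38, GSTU1 with -1.06 and UGT73B5 with -1.02, and none higher. The share called lower over all measured genes was 5.72%. The median was -0.78, with -0.79, -0.66 and -0.70 on the flow cells, although GSTU19, read in every heat shock well, had 0.17. None of the 6 measured dehydration and cold genes was called, and their median was -0.61.

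Some cell identity markers were called. HB53, whose promoter drove the sorted reporter, had reads in 9 of 96 heat shock wells (9.38%) and 19 of 153 comparison wells (12.4%), with a log2 ratio of -1.77. Of 21 regulators of lateral root formation, 16 were measured, 2 were called higher, ARF19 with 1.54 and PUCHI with 1.59, and 1 lower, HB53. The ratio was positive for 9 and negative for 7, with a median of 0.15. Over all measured genes, 6.33% were called higher and 5.72% lower, and nothing is read from these counts. LBD16, IAA28 and LRP1 had 0.56, 0.54 and -0.21, not called. In the auxin list, SHY2 with 4.21 and the influx carrier LAX3 with 2.54 were called among 14 measured genes. Of these 2 calls, 1 was of a gene with reads in under 10 comparison wells, measured only with the heat shock wells counted in. Nothing is read from that count, beside a share of 6.33% over all measured genes.

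Markers of other tissues were counted in both groups. At least 2 of 4 pericycle markers were read in 28.1% (19.4 to 38.2) of heat shock wells and 13.1% (8.17 to 19.5) of comparison wells. The nitrate transporter NRT1.5 and MYB68 were called, with 2.73 and 1.16, and the other 2 markers were not. The log2 ratio was positive for 3 of the 4 and negative for 1. Over all measured genes, 6.33% were called higher and 5.72% lower. For phloem the shares were 41.7% and 33.3%, and AT5G02460 was called with 1.29, SUC2 with -1.34 and AT3G52490 with -1.80. At least 2 endodermis markers were read in 14.6% and 6.54%, and of 16 markers 4 had no read in each group. In the vascular precursor list only TMO6 of 12 measured genes was called, with 1.18. The lists of xylem, endodermis, cortex, epidermis, root cap, stem cell niche and green tissue gave no call, with 0 to 3 measured genes each. Root cap markers were never read in pairs, and the part of tissue type in the results was not tested.

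Replication genes had a median ratio above 0 on 2 of 3 flow cells. Of 19 S phase genes, MCM4, PCNA1, PCNA2 and FAS1 were called higher, with 1.70, 1.61, 1.06 and 1.71. The S phase medians on the flow cells were -0.40, 1.60 and 0.92. Over all measured genes, 6.33% were called higher and 5.72% lower. Of 17 measured G2 and M phase genes, CDKB1;2, CDC20.1 and AUR1 were called lower, with -2.31, -1.50 and -1.24, from reads in 3, 4 and 11 heat shock wells. CDC20.1 gave 1.07 when both groups were limited to wells with 3000 to 6000 genes, as SUC2 gave 0.49.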

How the data were processed

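Single cells sorted into plates were sequenced, with reads of 150 bases per the labels. The authors deposited raw counts of reads for 32833 genes in 573 wells. Per the submitters' processing notes, the build was TAIR10. The sources used here do not give the aligner, the counting rule or its strand setting. Since molecular identifiers are not mentioned, PCR copies count repeatedly. Flow cell and plate came from deposited raw file names; flow cells were treated as technical batches, and whether they match the 3 replicates is not known.

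The rule, the gene lists and the rule for named genes were chosen with earlier results of these data known. Named genes were measured genes of the heat lists, the 12 highest and 10 lowest called genes outside all lists read in at least 30% of wells of the higher group, and in other lists called members and up to 3 of largest change. Reads were summed per group and scaled by TMM (trim 30% of M, 5% of A), which moved log2 ratios by 0.060. A group without reads stands at 3 reads. Thinning used the percentile 20 of totals and seed 1. Shares have Clopper-Pearson intervals. Doublets were not called in this plate format. Names, coordinates and sequences are RefSeq's (TAIR10.1), with an entry for 32548 genes. Python 3.11.15, numpy 2.4.6, pandas 2.3.3 and scipy 1.17.1 were used. The calling was also run on simulated reads with planted changes well above 2-fold and with the groups fixed beforehand. That run cannot speak to calls near 2-fold or to the choice of wells by their own reads.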

Additional observations from a re-analysis of the deposited data

Results flagged for a closer look

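Of the 251 wells with under 500 genes, which no comparison used, 19 had a read of at least 1 of the 10 rule genes, 7.57% (4.62 to 11.6). None had 5 or more of the genes, and the most in a well was 4. These wells had a median of 3922 reads and 52 genes, and the rule genes held 514 reads in all. Where those reads come from was not tested.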

How the results depend on the processing

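No paired analysis was possible because the sources do not say which replicate a well belongs to. The number of heat shock wells was 83 when a gene needed 5 reads, 95 with 1000 genes per well, 74 after thinning, 119 with 4 rule genes and 76 with 6. Calls fell to 557 higher and 524 lower with reads in at least 30 wells. They rose without any 1 flow cell, where the same sign was needed on the remaining flow cells only. There were 1453 higher and 1169 lower without flow cell 1, 1149 and 1303 without flow cell 2, and 1322 and 1373 without flow cell 3. With 3000 to 6000 genes per well there were 715 higher and 979 lower, so higher calls made 42.2% of calls against 52.5%, and 390 of the 988 higher genes were shared; thinning shared 568 and equal weight per well 639. The median of cytosolic chaperones was 1.15 with 3000 to 6000 genes, 1.17 without flow cell 2 and 0.85 against all other kept wells, where that of small heat shock proteins was 4.33. Without wells of over 7000 genes, an alternative added after seeing the data, these medians were 1.33 and 6.05. Some alternatives could not change a sign, or hardly could. Limits on wells with a read leave the ratio of a gene as it is, and library size alone moved ratios by 0.060. Calls already needed the same sign on all 3 flow cells. The next count is thus no measure of robustness. Of 1039 values of 82 called named genes in alternatives, 1034 kept their sign. The 5 that did not were AT5G37670 (-0.074) and JAZ7 (-0.56) with equal weight per well, SUC2 (0.49) and CDC20.1 (1.07) with 3000 to 6000 genes, and HSFA1E (-0.0080) with 6 rule genes; the cause was not tested. The median difference in wells with a read of small heat shock proteins was 42.4 percentage points thinned and 38.8 unthinned. Thinning left out 65 of the kept wells, so the shallowest wells enter only the unthinned values.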
